A study of Mus musculus with 8 samples.

Results

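The genes described here are 31 transcription factors and close cofactors that specify heart muscle and its chambers, chosen by name out of the 49315 genes counted, and all 31 were found by symbol. They were measured by RNA sequencing of whole mouse hearts at stage E18.5, in 4 hearts homozygous for the M195I change in CHD4 (genotype CHD4 M195I/M195I, called mutant or Mut) and 4 wild-type (WT) hearts. CHD4 is an ATPase that moves nucleosomes as part of the NuRD repressor complex. The labels name no strain, sex, litter or batch, and no further allele or treatment in either genotype, although the count columns are headed "Male". The comparison asks whether the genes that encode these factors differ in transcript level between mutant and WT hearts.

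Heart muscle is built by a small set of DNA-binding proteins that switch on one another and the contractile genes. NKX2-5, the GATA factors, the T-box factors and the HAND factors act together at cardiac enhancers, while MEF2 proteins, SRF and its coactivator myocardin drive genes of the sarcomere and cytoskeleton. Iroquois (IRX), COUP-TF, MEIS, TEAD, FOXP1, PRDM16 and MYCN proteins add chamber identity, conduction, wall growth and the timing of the cell cycle.

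Total counts were between 18673488 and 21341235 per library in mutants and between 18375951 and 20815388 in WT. Levels between genotypes are in CPM (counts relative to library size, scaled by the TMM method), and levels between genes are in TPM, which also divide by gene length. A log2 fold change is given as mutant minus WT, ± its standard error. A gene counts as called where the edgeR quasi-likelihood test, adjusted by Benjamini-Hochberg over all 16372 genes tested, gave less than 0.05. These p-values measure the spread between these samples, which the labels do not tie to separate litters. In whole hearts, fewer cells of a type and less RNA per cell cannot be told apart. In all, 5 libraries, 2 mutant and 3 WT, carried RNA of airway epithelium, with the airway gene Scgb3a2 between 176 and 498 CPM of library totals, against 0.328 to 6.48 CPM in the other 3. Those 3 are Mut replicates 1 and 2 and WT replicate 2, so any value within them rests on 1 WT heart. Chd4 itself was at 482 ± 8.48 CPM in mutants and 452 ± 6.37 CPM in WT (SD, n = 4 each), a log2 fold change of 0.09 ± 0.03 that was not called (edgeR adjusted p = 0.0945). Every mutant heart (474 to 494 CPM) lay above every WT heart (445 to 460 CPM), a separation upward that 8.8% of all tested genes showed. Counts do not show the mutated codon.

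Most of these factors were measured at nearly the same level in both genotypes. Of the 31, 2 were higher in mutants, namely Nr2f2 and Meis1, and none was lower. Across all tested genes 5.75% were called higher and 7.49% lower, 13.2% in all, so the 6.45% called among the factors lay under the background in total and near it for the higher direction. At an unadjusted edgeR p under 0.05 there were 7 factors higher and 2 lower. Of the 16372 tested genes, 2026 were higher and 2284 lower at that threshold. DESeq2 called 3 factors higher and 0 lower, beside 6.35% and 8.18% of all genes that it gave an adjusted p. For limma-voom it was 2 factors higher and 0 lower, beside 5.19% and 6.96% of all genes. The fitted log2 fold changes ran from -0.17 for Mycn to 0.27 for Nr2f2, with a median of 0.05 beside 0.00 over all tested genes, and a median size of 0.09 beside 0.11. They were above 0 for 20 of the 31 factors and for 50% of all tested genes. A p that misses the threshold does not show that levels were equal, so the 95% intervals matter more: for 24 of the 31 factors the whole interval lay within 0.32 log2 units of no difference, which is 25% more in mutants or as large a ratio the other way. The same held for 52.2% of all tested genes, whose median WT level was 19.1 CPM where that of the factors was 52.7 CPM, and lower genes have wider intervals.

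**Figure D1:**
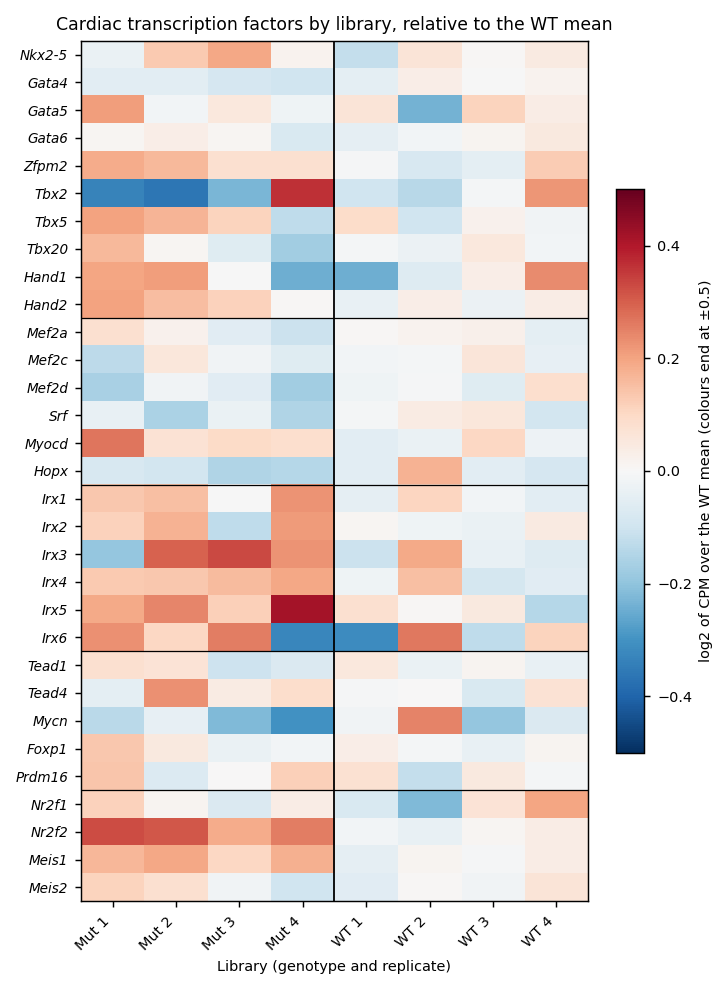
Each row is 1 of the 31 genes and each column 1 library, with mutants left of WT; colour is the log2 of its CPM (scaled by TMM) over the mean of the 4 WT libraries, and lines part the groups of factors. The rows of Nr2f2 and Meis1 are among those red in all 4 mutant libraries, while most rows stay pale, and Tbx2 departs from its group in Mut replicate 4.

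The number called rested on the libraries and the scaling used. Without Mut replicate 2 or without WT replicate 1 there was 1 factor higher, and without Mut replicate 4 there were 4 higher and 1 lower. With library totals in place of TMM 7 were higher and 0 lower, while over all genes that scaling gave 1856 higher and 858 lower genes where TMM gave 942 and 1226. With the lung epithelium level of each library as a covariate 4 factors were higher and 2 lower.

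Nr2f2 encodes COUP-TFII, a nuclear receptor that sets atrial muscle and venous endothelial identity. The gene lies on chromosome 7 (70351944 to 70366735, minus strand, GRCm38). Its levels were 55.4, 54.8, 50.3 and 52.7 CPM in the 4 mutant hearts and 43.8, 43.1, 44.4 and 45.4 CPM in the 4 WT hearts. Every mutant heart lay above every WT heart, a separation upward that 8.8% of all tested genes showed. The log2 fold change was 0.27 ± 0.05, with a 95% interval from 0.17 to 0.37 (edgeR adjusted p = 0.00135). It stayed called under all 22 alternative settings, at values between 0.21 and 0.36.

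Its paralogue Nr2f1, which encodes COUP-TFI, was at 15.0 ± 0.791 CPM in mutants and 14.7 ± 1.83 CPM in WT, and the genotypes overlapped (0.03 ± 0.09, 95% interval -0.16 to 0.21, edgeR adjusted p = 0.909). Of the TPM of the pair, Nr2f2 took 65.7% to 67.0% in mutants and 59.7% to 65.3% in WT, a share that does not depend on how libraries are scaled. The exons of Nr2f2 overlap those of B130024G19Rik on the opposite strand, which had 53 to 103 counts per library where Nr2f2 had at least 805. Whether reads were assigned by strand is not stated in the labels or files, so reads of such neighbours cannot be told apart, and 13 of the 31 genes overlap another annotated gene in their exons.

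Meis1 encodes a homeodomain protein of the TALE class that restrains division of heart muscle cells after birth in mice. It lies on chromosome 11 (18879817 to 19018985, minus strand). Levels were 59.1, 60.2, 56.7 and 59.5 CPM in mutant hearts and 51.1, 53.2, 52.4 and 54.0 CPM in WT hearts, again with no overlap. The log2 fold change was 0.16 ± 0.04 (95% interval 0.07 to 0.25, edgeR adjusted p = 0.0192). The call was lost without Mut replicate 2 (edgeR adjusted p = 0.0529) or WT replicate 1 (0.0661), and within the libraries with airway RNA (0.105). It was also lost within those without it, where the value was 0.17 against 1 WT heart. With the Xist covariate it was lost as well (0.207). Xist was low in every library, at 1.55 to 1.98 CPM in mutants and 1.25 to 1.56 CPM in WT. These low values nearly followed genotype, so that fit can hardly separate the covariate from genotype. Meis1 stayed between 0.14 and 0.21 in every alternative, although it does not pass 0.01. Its exons overlap those of Gm37818 on the same strand, with 20 to 36 counts per library, and those of Gm16140 on the opposite strand, with at most 3.

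Meis2, the paralogue of Meis1, was at 47.1 ± 3.14 CPM in mutants and 46.4 ± 1.6 CPM in WT (0.02 ± 0.05, edgeR adjusted p = 0.868), and its libraries overlapped. Meis1 made up 57.4% to 61.2% of the TPM of the pair in mutants and 56.0% to 56.7% in WT. Whether either called gene differs from its paralogue in its genotype effect was not tested.

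The DNA just before the start sites is shown for Nr2f2 and Meis1, the factors that were called, and for Srf, Actc1 and Ccn1, whose windows hold elements that these factors are known to bind and whose levels are described further on. Each line gives the 250 bases before the RefSeq start, 5′ to 3′ on the gene's strand (GRCm38.p6): chr7:70366747-70366996 for Nr2f2, chr11:19018970-19019219 for Meis1, chr17:46556163-46556412 for Srf, chr2:114052876-114053125 for Actc1 and chr3:145649986-145650235 for Ccn1, all on the minus strand. Capitals mark matches on either strand to the E-box CANNTG, bound by HAND proteins, the GATA site in the forms AGATAA and AGATAG as well as TGATAA and TGATAG, the NKX2-5 core AAGTG, the T-box core GGTGTG, the MCAT element GGAATG of TEAD proteins, the MEIS core TGACAG, the CArG box of SRF and the MEF2 site.
Nr2f2: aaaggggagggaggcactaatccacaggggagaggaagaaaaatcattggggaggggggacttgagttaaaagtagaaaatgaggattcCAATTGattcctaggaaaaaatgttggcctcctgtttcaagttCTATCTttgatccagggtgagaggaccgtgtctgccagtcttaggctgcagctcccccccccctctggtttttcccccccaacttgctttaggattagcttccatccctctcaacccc
Meis1: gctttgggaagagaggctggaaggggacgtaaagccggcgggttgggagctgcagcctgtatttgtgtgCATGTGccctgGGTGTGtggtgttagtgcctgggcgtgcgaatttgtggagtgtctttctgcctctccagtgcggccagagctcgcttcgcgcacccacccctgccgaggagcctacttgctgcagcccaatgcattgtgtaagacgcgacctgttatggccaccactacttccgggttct
Srf: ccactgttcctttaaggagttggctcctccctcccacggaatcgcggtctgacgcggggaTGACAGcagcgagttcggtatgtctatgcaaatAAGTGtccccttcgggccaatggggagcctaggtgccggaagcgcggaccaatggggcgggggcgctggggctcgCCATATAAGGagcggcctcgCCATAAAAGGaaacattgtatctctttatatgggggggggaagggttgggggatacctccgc
Actc1: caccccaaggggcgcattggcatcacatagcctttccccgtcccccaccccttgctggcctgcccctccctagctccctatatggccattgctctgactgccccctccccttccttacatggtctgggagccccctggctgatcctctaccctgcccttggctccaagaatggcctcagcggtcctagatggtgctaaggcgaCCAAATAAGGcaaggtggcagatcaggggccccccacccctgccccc
Ccn1: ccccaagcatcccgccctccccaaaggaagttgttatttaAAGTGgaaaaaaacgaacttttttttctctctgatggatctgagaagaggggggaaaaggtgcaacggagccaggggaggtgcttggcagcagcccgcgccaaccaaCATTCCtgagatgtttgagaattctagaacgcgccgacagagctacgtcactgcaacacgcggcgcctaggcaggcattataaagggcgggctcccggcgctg

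Matches are letters in a window and not shown to be bound. The Nr2f2 window held an E-box at positions -161 to -156 from the start and a GATA site at -118 to -113, and the Meis1 window an E-box at -181 to -176 and a T-box core at -170 to -165. The Srf window held CArG boxes at -82 to -73 and -62 to -53, beside an NKX2-5 core and a MEIS core. That of Actc1 held 1 CArG box at -47 to -38, and that of Ccn1 an MCAT element at -103 to -98 and an NKX2-5 core. Of all 32851 windows of this length, 66.2% held an E-box, 26.5% a GATA site, 40.7% the NKX2-5 core, 16.3% the T-box core, 12.6% the MCAT element, 15.9% the MEIS core, 1.47% a CArG box and 2.92% a MEF2 site. RefSeq windows were matched for 19 of the 31 factors, 25 windows in all, and of these 2 held a CArG box (Srf and Hopx) and 0 a MEF2 site.

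Levels per length spanned a wide range. Hopx, whose product is a small homeodomain protein that binds SRF and not DNA, was highest, at 560 ± 12.5 TPM in mutants and 573 ± 34.7 TPM in WT. Nkx2-5 followed with 322 ± 22.1 TPM in mutants and 289 ± 13.7 TPM in WT, then Gata6, Srf and Gata4. Irx6 was lowest, at 1.07 ± 0.180 TPM in mutants and 0.954 ± 0.148 TPM in WT, with 16 to 26 counts per library. In WT, 26 factors were at 10 TPM or more and 5 below it (Nr2f1, Tead4, Gata5, Hand1 and Irx6). Of the 30 neighbouring pairs in the WT order, 15 did not overlap between libraries and 15 did, among them Srf with Gata4 and the run of Mycn, Mef2c, Irx2, Tbx2 and Irx1, whose order is therefore not resolved.

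**Figure D2:**
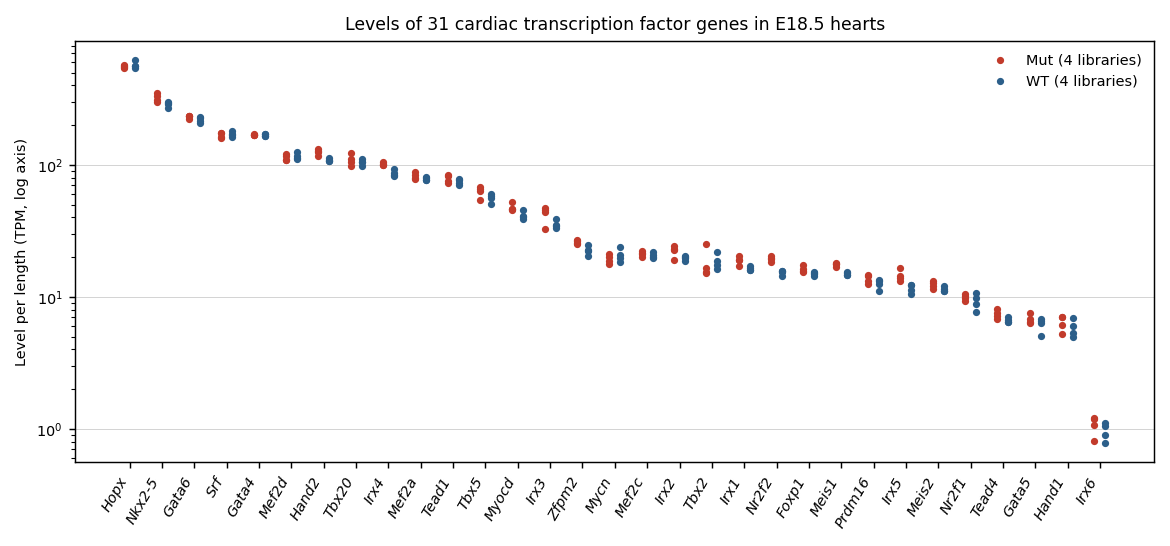
Level of each gene in TPM on a log axis, ordered by the WT mean; each point is 1 library, with mutants at the left and WT at the right of each gene. Hopx and Nkx2-5 lie at the top and Irx6 at the bottom, and mutant and WT points lie close together along the order.

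Shares of TPM within a family were taken over its listed genes only, so relatives outside the list, such as Tead2, were left out. For HAND and TEAD only 2 genes were listed, so that 1 of them holds most is given in advance. Gata6 made up 56.8 ± 0.551% of the summed TPM of Gata4, Gata5 and Gata6 in mutants and 55.7 ± 0.518% in WT, and Gata5 made up 1.66 ± 0.114% in mutants and 1.56 ± 0.169% in WT. Hand2 held 95.2% of HAND TPM in mutants and 95% in WT. Tead1 held 91.3% of the TPM of Tead1 and Tead4 in mutants and 91.8% in WT, and Irx4 held 50.7% of IRX TPM in either genotype. Among the T-box genes listed, Tbx20 held 57.4% in mutants and 58.4% in WT, and among MEF2 genes Mef2d held 52.5% in mutants and 53.9% in WT.

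The core regulators gave no call: of 10 genes (Nkx2-5, the GATA genes with their cofactor gene Zfpm2, the T-box genes and the HAND genes), edgeR called 0, and at an unadjusted p under 0.05 there were 2 higher and 0 lower. Neither DESeq2 nor limma-voom called any of them. Nkx2-5, the homeobox gene required for heart tube growth and conduction, was between 145 and 169 CPM in mutants and between 136 and 154 CPM in WT (0.08 ± 0.05, 95% interval -0.03 to 0.19, edgeR adjusted p = 0.378). Gata6 differed by -0.01 ± 0.04 (95% interval -0.09 to 0.08, edgeR adjusted p = 0.959) and Tbx20 by -0.01 ± 0.06 (-0.14 to 0.12, adjusted p = 0.946), so that differences beyond 0.32 log2 units lay outside their intervals. In mutants Tbx20 spread from 372 to 470 CPM, and in WT from 412 to 436 CPM.

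Gata4, whose zinc-finger protein partners NKX2-5 and TBX5 at cardiac genes, had 212.7, 212.5, 208 and 206 CPM in mutant hearts and 213.5, 226, 220 and 223 CPM in WT hearts. All mutant hearts were below all WT hearts, by less than 1 CPM between the nearest, where 9.77% of all tested genes were separated in that direction. The log2 fold change was -0.07 ± 0.04 (95% interval -0.15 to 0.00) and was not called (edgeR adjusted p = 0.21). With library totals it was -0.02, and the TPM of Gata4 overlapped, at 167 to 171 in mutants and 165 to 172 in WT. Gata5, an endocardial GATA gene, was at 7.05 ± 0.535 CPM in mutants and 6.77 ± 0.702 CPM in WT.

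Hand2, the basic helix-loop-helix gene needed for the right ventricle, had 99.2, 96.1, 93.4 and 86.5 CPM in mutants and 84.0, 88.2, 84.5 and 88.5 CPM in WT. Mut replicates 1 to 3 lay above all WT hearts and Mut replicate 4 among them (0.12 ± 0.04, edgeR adjusted p = 0.0874). Hand2 was called without Mut replicate 4 (0.16, edgeR adjusted p = 0.0185) and with library totals (0.17, adjusted p = 0.00909). Hand1, its scarce relative of the left ventricle, was at 4.01 ± 0.569 CPM in mutants and 3.87 ± 0.540 CPM in WT. Zfpm2, which encodes the GATA4 cofactor FOG2, differed by 0.13 ± 0.05 (edgeR adjusted p = 0.139), and Tbx5, the gene of Holt-Oram syndrome in humans, by 0.09 ± 0.07 (adjusted p = 0.445). Tbx5 was called higher without Mut replicate 4 (0.16, edgeR adjusted p = 0.0411). Within the libraries with airway RNA it differed by -0.04, and within those without by 0.29, a value set against WT replicate 2 alone, the lowest WT heart at 81.7 CPM.

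Tbx2, a repressor of chamber genes in the atrioventricular canal, had 17.9, 17.5, 19.2 and 28.9 CPM in mutants and 21.0, 20.4, 22.3 and 26.2 CPM in WT. The fourth mutant heart stood above all others and the remaining mutants below all WT hearts. The log2 fold change was -0.10 ± 0.18 (95% interval -0.53 to 0.32, edgeR adjusted p = 0.793), and without Mut replicate 4 it was -0.30 and called (adjusted p = 0.0359). That library also had the highest sum of the 16 lung epithelium markers, at 861 CPM, where the other mutants had 31 to 390 CPM and WT 36.3 to 554 CPM. It had the highest sum of the lung mesenchyme markers as well, at 65 CPM, where the other mutants had 44 to 48.9 CPM and WT 52.5 to 61 CPM. The part of lung RNA in the Tbx2 level was not tested.

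**Figure D3:**
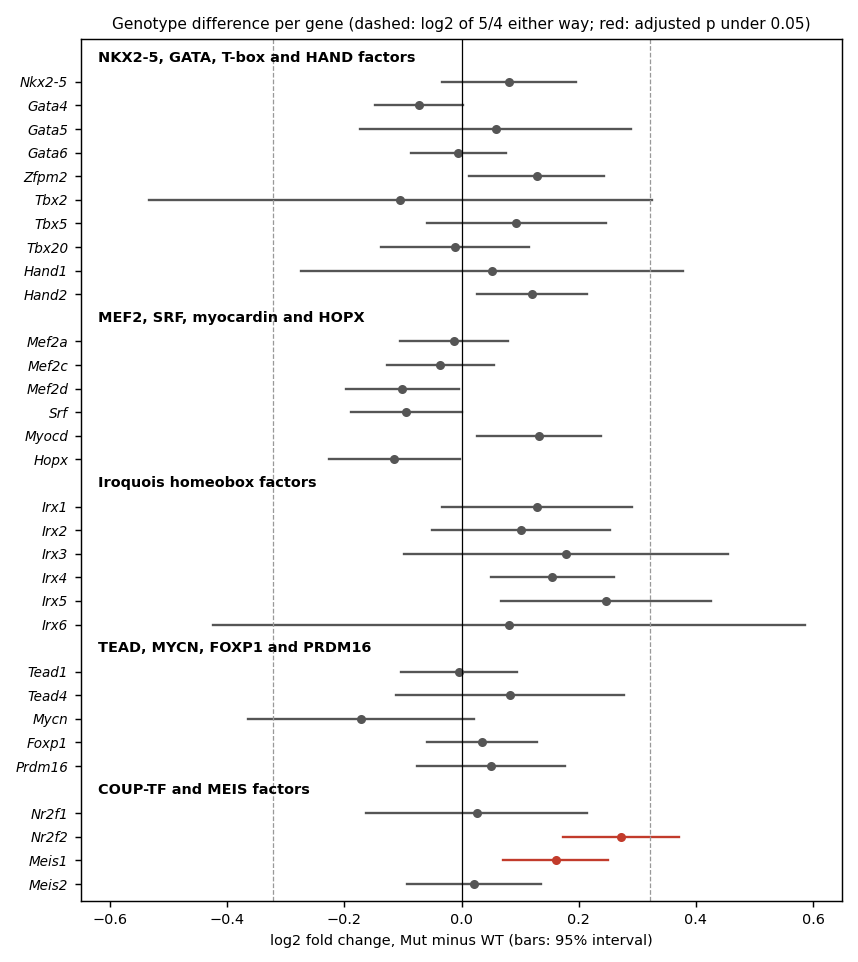
Log2 fold change of each gene (mutant minus WT, point) with its 95% interval (bar), grouped by role; dashed lines mark 0.32 log2 units either way and red marks genes called at an edgeR adjusted p under 0.05. Nr2f2 and Meis1 are the red genes, and 24 of the 31 intervals lie between the dashed lines.

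Among MEF2, SRF, myocardin and HOPX genes, edgeR called 0 of 6, with 1 higher and 2 lower at an unadjusted p under 0.05, and DESeq2 and limma-voom called 0. All 6 intervals lay within 0.32 log2 units of no difference. Mef2a (-0.01 ± 0.04), Mef2c (-0.04 ± 0.04) and Mef2d (-0.10 ± 0.05), which encode MADS-box activators of muscle genes, had edgeR adjusted p-values of 0.906, 0.67 and 0.167. Srf, the serum response factor gene, was at 210 to 229 CPM in mutants and 220 to 243 CPM in WT (-0.09 ± 0.04, 95% interval -0.19 to 0.00, edgeR adjusted p = 0.19). Hopx was at 263 to 277 CPM in mutants and 275 to 330 CPM in WT (-0.12 ± 0.05, edgeR adjusted p = 0.174), and was called lower with the lung epithelium covariate (adjusted p = 0.0371). WT replicate 2 was the highest WT heart, and without it the value was -0.05.

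Myocd, which encodes the SRF coactivator myocardin, had 107, 93.4, 94.9 and 94.1 CPM in mutants and 85.6, 86.9, 95.5 and 87.3 CPM in WT. Only WT replicate 3 reached into the range of the mutants. The log2 fold change was 0.13 ± 0.05 (edgeR adjusted p = 0.0982), and it was called without WT replicate 3 (0.17, adjusted p = 0.0476), with library totals (adjusted p = 0.025) and with no filter on low counts (adjusted p = 0.0439).

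The 6 Iroquois genes all had positive log2 fold changes, from 0.08 to 0.25 with a median of 0.14, and edgeR called 0 of them (2 higher and 0 lower at an unadjusted p under 0.05; DESeq2 1 and limma-voom 0). These signs held under the 3 other scalings, while Irx6 turned negative without WT replicate 1, and Irx3, Irx4 and Irx6 did so within the libraries without airway RNA, against 1 WT heart. They lie in a pair of clusters, Irx1, Irx2 and Irx4 on chromosome 13 and Irx3, Irx5 and Irx6 on chromosome 8. On chromosome 13, Irx1 differed by 0.13 ± 0.08, Irx2 by 0.10 ± 0.07 and Irx4 by 0.15 ± 0.05. On chromosome 8, Irx3 differed by 0.18 ± 0.12, Irx5 by 0.25 ± 0.08 and Irx6 by 0.08 ± 0.24.

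Irx4, the ventricular member, had 82.7, 83.0, 84.4 and 86.3 CPM in mutants and 74.5, 84.0, 71.1 and 72.7 CPM in WT. The mutants were tightly grouped, and only WT replicate 2 reached them. Its edgeR adjusted p was 0.0501, just past the threshold, and 10 of the 22 alternatives called it, among them DESeq2 (adjusted p = 0.0397) and the fit without WT replicate 2 (0.21, adjusted p = 0.00384). Within the libraries with airway RNA its value was 0.23, and within those without it was -0.01, where the WT heart is replicate 2 alone.

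Irx5, which with Irx3 patterns potassium currents and conduction across the ventricular wall in mice, had 13.8, 14.4, 13.2 and 16.2 CPM in mutants and 12.8, 12.2, 12.6 and 11 CPM in WT. The genotypes did not overlap, yet the call was missed (0.25 ± 0.08, 95% interval 0.07 to 0.43, edgeR adjusted p = 0.0675). It was called with library totals, with no filter and with the lung epithelium covariate (adjusted p = 0.03, 0.0475 and 0.0407). Irx3 had 28.7, 40.2, 41.2 and 38.3 CPM in mutants and 30.5, 37.4, 31.9 and 31.4 CPM in WT. Its first mutant heart was the lowest of all 8, and without Mut replicate 1 the gene was called (0.28, edgeR adjusted p = 0.0132), as it was within the libraries with airway RNA (0.34, adjusted p = 0.00249).

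**Figure D4:**
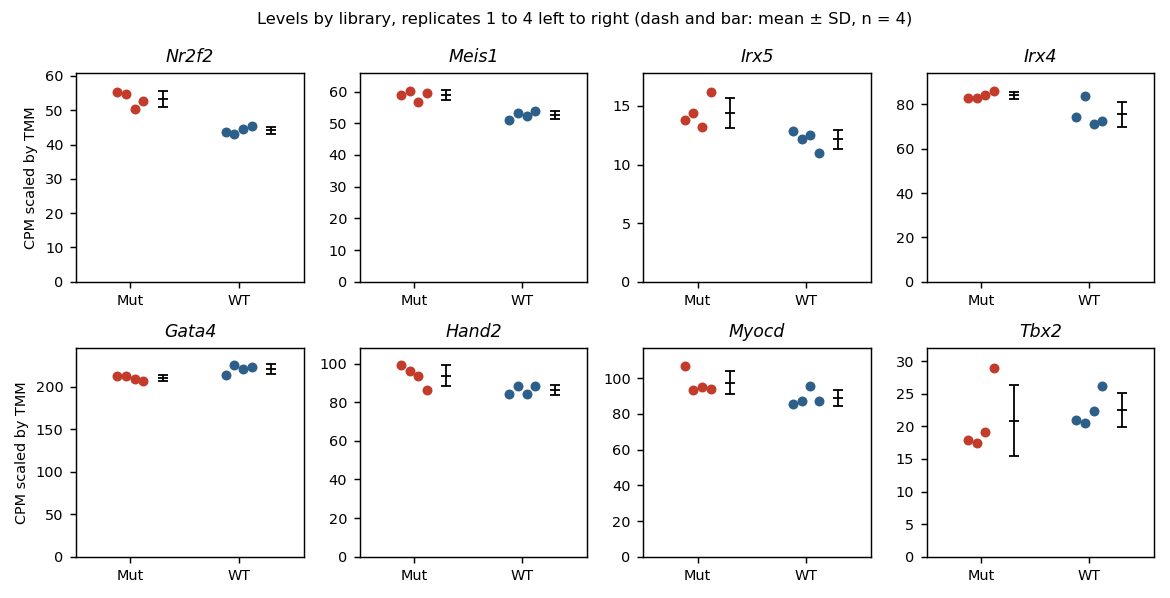
CPM scaled by TMM in each library for 8 of the factors, on axes that start at 0; points are replicates 1 to 4 from left to right, mutants left of WT, and the bar is the mean ± SD (n = 4). Nr2f2, Meis1 and Irx5 are fully above WT, Gata4 is just below it, and in Irx4, Hand2, Myocd and Tbx2 the genotypes overlap.

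The remaining 5 genes gave no call (edgeR 0 of 5, 0 in either direction at an unadjusted p under 0.05, and 0 by DESeq2 and limma-voom). Tead1, which encodes a DNA-binding partner of YAP, differed by -0.00 ± 0.05 (95% interval -0.10 to 0.09) and Tead4 by 0.08 ± 0.09. Foxp1, a forkhead gene of muscle and endocardium, differed by 0.04 ± 0.04, and Prdm16, a gene of compact ventricular wall identity, by 0.05 ± 0.06. Mycn, which drives growth of the ventricular wall, was at 20.3 ± 1.6 CPM in mutants and 22.8 ± 3.05 CPM in WT (-0.17 ± 0.09, 95% interval -0.36 to 0.02, edgeR adjusted p = 0.248), and with the lung epithelium covariate it was called lower (-0.19, adjusted p = 0.047).

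Partners and relatives outside the 31 genes were called in both directions under TMM scaling, where 5.75% of all tested genes were called higher and 7.49% lower. Of 11 GATA and T-box partners and relatives tested, Tbx18, of the epicardium and sinus venosus, rose to 44.8 ± 6.29 CPM in mutants, against 32.0 ± 1.47 CPM in WT (0.48 ± 0.09, edgeR adjusted p = 0.0051), while Tbx3, of the conduction system (-0.29 ± 0.08), and Casz1 (-0.13 ± 0.04) fell. The number called lower was 0 without Mut replicate 2, Mut replicate 3 or WT replicate 1, and 1 without Mut replicate 4, WT replicate 2, WT replicate 3 or WT replicate 4. Of 15 MEF2 regulators and SRF cofactors tested, Mrtfb, a myocardin-related coactivator (0.17 ± 0.05), and Scai, a suppressor of such coactivators (0.26 ± 0.07), rose and Camta2 fell (-0.17 ± 0.04). The number called higher was 0 without Mut replicate 1 or WT replicate 2, 3 without WT replicate 4 and 1 without Mut replicates 2, 3 or 4 or WT replicates 1 or 3, and the number called lower was 0 without Mut replicate 3. None of the class IIa deacetylase genes Hdac4, Hdac5, Hdac7 and Hdac9, whose products hold MEF2 in check, was called.

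Tead2 rose to 100.4 ± 3.95 CPM in mutants, against 84.0 ± 1.93 CPM in WT (0.26 ± 0.04, edgeR adjusted p = 0.00052). It was the 1 call among 6 TEAD cofactors and relatives tested. The other 5 had negative log2 fold changes, 3 of them lower at an unadjusted edgeR p under 0.05. Of these, 1 was called lower without Mut replicate 1, Mut replicate 4 or WT replicate 3. With no filter 1 was called lower, and with the lung epithelium covariate 2. The coactivator genes Yap1 (-0.11) and Wwtr1 (-0.00) were not called. Among 21 TALE, COUP-TF, FOXP, PRDM and MYC relatives, Foxp4 (0.25 ± 0.05) and Mxd4, of a MYC antagonist (0.26 ± 0.05), rose, and Myc (-0.51 ± 0.09) and Foxp2 (-0.50 ± 0.13) fell, with 1 called lower without Mut replicates 2 or 3 or WT replicates 1, 3 or 4. The calls depended on the scaling: with library totals there were 2 higher and 0 lower among GATA and T-box partners, 4 and 0 among MEF2 regulators and SRF cofactors, 1 and 0 among TEAD cofactors, and 4 and 2 among the TALE to MYC relatives. With Xist as a covariate, which is hard to tell apart from genotype in these libraries, there were, in the same order of lists, 1 and 0, 0 and 0, 1 and 0, and 0 and 0. The median over these 4 lists lay between -0.06 and 0.09, where that over all tested genes was 0.00.

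Among genes known as targets of MEF2, SRF or TEAD proteins, every call of the main edgeR fit was in the lower direction, where 7.49% of all tested genes were called lower. All lists were chosen with earlier results of these data known, so the calls within them are no test against that share. Of 15 MEF2 targets, a list that holds Myocd itself, 10 fell and 0 rose (1 higher at an unadjusted edgeR p under 0.05, 0 by DESeq2 and limma-voom), with a median of -0.23. Sarcalumenin (Srl, -0.39 ± 0.04), myoglobin (Mb, -0.65 ± 0.06) and desmin (Des, -0.36 ± 0.05) had the smallest adjusted p-values. Of 18 targets of SRF and myocardin, 7 fell and 0 rose (0 higher at an unadjusted edgeR p under 0.05 and by DESeq2 and limma-voom), with a median of -0.29. The calponin gene Cnn2 (-0.37 ± 0.04), the regulatory light chain gene Myl9 (-0.39 ± 0.05) and the tropomyosin gene Tpm2 (-0.29 ± 0.04) had the smallest adjusted p-values, and the immediate early gene Egr1, named after its values were seen, had the lowest value of the list (-0.78 ± 0.10). The difference in calls between the factors and these lists was not tested.

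Of 11 targets of YAP and TEAD, 5 fell and 0 rose (0 higher at an unadjusted edgeR p under 0.05 and by DESeq2 and limma-voom), with a median of -0.21. Ccn1, a secreted matricellular protein gene, was at 42.5 ± 3.74 CPM in mutants and 79.2 ± 7.5 CPM in WT (-0.90 ± 0.08, edgeR adjusted p = 4.3e-05), followed by Amotl2 (-0.38 ± 0.05) and Crim1 (-0.21 ± 0.06). There were 2 calls without Mut replicate 2 or WT replicate 1, and 3 without Mut replicate 3, Mut replicate 4, WT replicate 3 or WT replicate 4. With library totals 8 of the MEF2, 7 of the SRF and 3 of the YAP and TEAD targets were called lower, and 1 MEF2 target, Myocd, was called higher. Myocd was also called higher with no filter and without WT replicate 3, and 1 SRF target was called higher with no filter. With Xist as a covariate, which followed genotype closely, 4 of the MEF2, 2 of the SRF and 2 of the YAP and TEAD targets were called lower.

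Genes listed as targets of NKX2-5, GATA4 or TBX5 split: of 18, the cardiac actin gene Actc1 (-0.44 ± 0.06), the troponin C gene Tnnc1 (-0.27 ± 0.05) and Nppb (-1.33 ± 0.17) fell, and the adenosine receptor gene Adora1 (0.19 ± 0.06) and the sodium-calcium exchanger gene Slc8a1 (0.15 ± 0.05) rose, with a median of -0.08. Without Mut replicate 3 there were 5 lower and 0 higher. The number higher was 0 without WT replicate 2 or WT replicate 4, and 1 without Mut replicate 2, WT replicate 1 or WT replicate 3. DESeq2 called 6 lower and 4 higher. With Xist as a covariate, which followed genotype closely, edgeR called 0 in either direction. Of all tested genes 7.49% were called lower and 5.75% higher. Of 15 chamber genes, Myl3 (-0.21 ± 0.05) and the growth factor gene Bmp10 (-0.94 ± 0.17), which is also in the list of atrial markers, fell. In the higher direction edgeR called 0 (3 at an unadjusted p under 0.05, 3 by DESeq2 and 2 by limma-voom), with 4 higher without Mut replicate 4 and 1 without Mut replicate 1. With library totals there were 3 higher and 2 lower chamber genes, and with no filter 3 and 3. The exons of Des, Mb, Slc8a1, Adora1, Myl3, Tead2, Mxd4, Mrtfb, Casz1, Tbx3 and Tbx18 overlap those of another gene, and Actc1 and Tpm2 have close paralogues that can share reads.

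**Figure D5:**
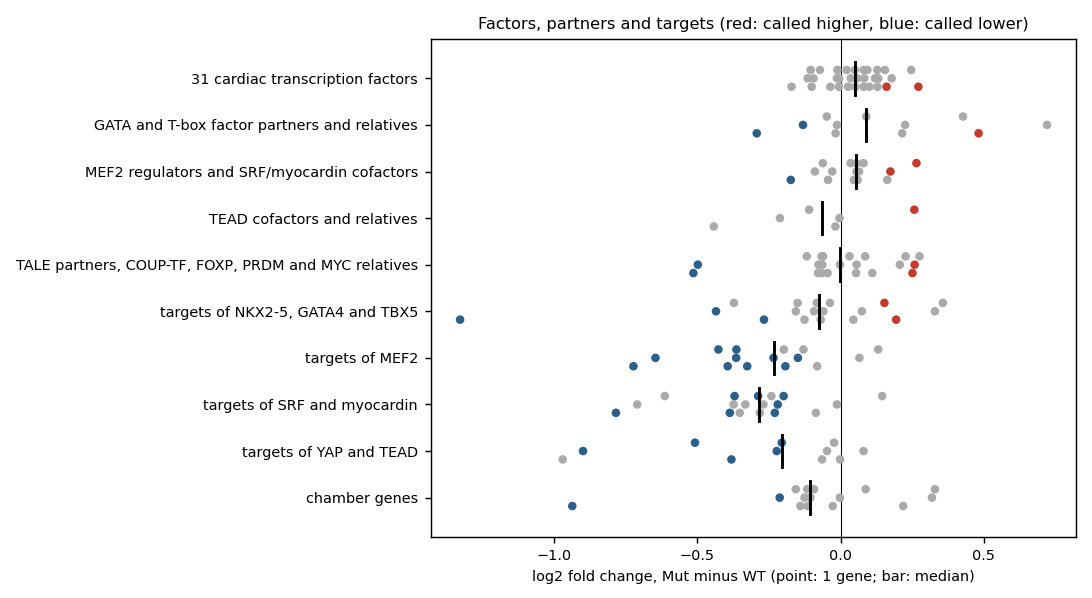
Log2 fold change (mutant minus WT) of each tested gene in the 31 factors, in 4 lists of partners and relatives, in 4 lists of known targets and in the chamber genes; red points were called higher and blue points lower, grey points were not called, and the bar is the median. The factors lie between -0.17 and 0.27, and the medians of the MEF2, SRF and YAP and TEAD targets lie at -0.23, -0.29 and -0.21. All lists were chosen with earlier results of these data known.

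Markers of the cell types in the heart were read beside these values, against 5.75% called higher and 7.49% lower over all tested genes. Of 8 cardiomyocyte markers 2 fell (4 by DESeq2 and 3 by limma-voom), and their summed level was 27648 to 33356 CPM in mutants and 32607 to 36074 CPM in WT. All 8 had negative log2 fold changes, with a median of -0.12, where 50% of all tested genes were above 0. Of 8 atrial markers 2 fell, with sums of 3727 to 4725 CPM in mutants and 4595 to 5309 CPM in WT, and DESeq2 and limma-voom also called 1 higher. Of 6 ventricular markers 1 fell (Myl3), with sums of 8014 to 8344 CPM in mutants and 8330.2 to 9599 CPM in WT. The lists share genes: Myl3 is also among the cardiomyocyte markers and the chamber genes, and Bmp10 is among the atrial markers and the chamber genes. Log2 fold changes were negative for 7 of the 8 atrial and 5 of the 6 ventricular markers. The sums of these 3 marker lists overlapped between genotypes, but those of the cardiomyocyte and ventricular markers did so only through Mut replicate 3.

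Of 9 endothelial and endocardial markers 1 rose and 2 fell, with sums of 1341 to 1495 CPM in mutants and 1376 to 1491 CPM in WT, and with library totals 2 were higher and 0 lower. Of 8 fibroblast and valve markers 2 fell, with sums of 8029 to 8834 CPM in mutants and 7372 to 9781 CPM in WT. Of 7 smooth muscle and pericyte markers 1 fell (Acta2, also among the SRF targets), with sums of 1074 to 1259.96 CPM in mutants and 1248 to 1397 CPM in WT. These sums overlapped as well, as did those of 8 neuronal and Schwann cell markers, at 16.9 to 22.4 CPM in mutants and 14.1 to 20.3 CPM in WT, of which edgeR called 0 (0 also at an unadjusted p under 0.05, by DESeq2 and by limma-voom).

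The epicardial markers summed to 214 to 279 CPM in mutants and 285 to 315 CPM in WT without overlap, with 1 of 7 called higher and 3 lower. The blood markers summed to 1297 to 2015 CPM in mutants and 2069 to 3929 CPM in WT, again without overlap. Of these 10, edgeR called 1 higher (Lyz2, of macrophages) and 0 lower, with 4 lower at an unadjusted p under 0.05, 4 by DESeq2 and 4 by limma-voom. Of the lung markers tested, 1 of 13 for epithelium and 1 of 6 for mesenchyme fell, but 9 and 4 of them had positive log2 fold changes, with medians of 0.14 and 0.41. With library totals 0 epithelium markers were called lower. The epithelium sums were 31 to 861 CPM in mutants and 36.3 to 554 CPM in WT. The mesenchyme sums were 44 to 65 CPM in mutants and 52.5 to 61 CPM in WT, so both overlapped. No marker of these lists was at 0 in all libraries, and the part of cell makeup in the levels of Nr2f2, Meis1 or the target lists was not tested.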

How the data were processed

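RNA from whole hearts was made into libraries with an Illumina TruSeq kit, per the labels' protocols. Trimmomatic 0.36, STAR 2.5.2b, featureCounts of Subread 1.5.2 and the build GRCm38 are named in the submitters' processing notes. The authors deposited whole-number counts with no normalization, and the series table and the library files differed in 0 values. Gene lengths and positions are those of the deposited count files, and neither the annotation release nor the strand setting was found in the labels or headers. Symbols came from GENCODE M21.

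Genes were kept by filterByExpr (minimum count 10), which left 16372 including all 31 factors. Counts were scaled by TMM (factors 1.01 to 1.03 in mutants, 0.963 to 0.993 in WT) and compared across all 8 libraries in edgeR 4.0.16 (R 4.3.3; quasi-likelihood, robust, genotype as the one term). TPM were computed from counts and gene lengths. Libraries of a genotype differed beyond counting noise (chi-square over its degrees of freedom 2.87 to 9.18), so none is a library deposited again; this does not show that each came from a separate heart. The alternatives were DESeq2 1.42.0, limma-voom (limma 3.58.1), other scalings, filters and a stricter threshold, leaving out libraries in turn, non-robust dispersion, a replicate block, lung epithelium or Xist as a covariate, and libraries with or without airway RNA (Scgb3a2 at 10 CPM). The test was checked on simulated counts. The factors and all lists were chosen with earlier results of these data known. Every factor is named, with up to 3 called genes per list and direction by adjusted p; the deacetylase genes, Yap1, Wwtr1, Egr1, Acta2 and Lyz2 were added after their values were seen.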

Additional observations from a re-analysis of the deposited data

Results flagged for a closer look

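Of 62 sets of 4 libraries (31 factors in each genotype), 4 held a library far from the other 3 by Dixon's test at 95%, where chance flags about 1 in 20. Tbx2 was at 28.9 CPM in Mut replicate 4 and at 17.5 to 19.2 CPM in the other mutants. Myocd was at 107 CPM in Mut replicate 1, against 93.4 to 94.9 CPM in the other mutants, and at 95.5 CPM in WT replicate 3, against 85.6 to 87.3 CPM in the other WT hearts. Hopx was at 330 CPM (329.8) in WT replicate 2 and at 275 to 282 CPM in the other WT hearts.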

How the results depend on the processing

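Nr2f2 was called higher under all 22 alternatives and Meis1 under 16 of them. Of the 31 factors, 14 kept the sign of their log2 fold change under every alternative and 17 changed it in at least 1, none of them while called with the changed sign, and 19 were not called under any. The numbers called higher and lower among the factors, 2 and 0, became 7 and 0 with library totals, 5 and 0 with no filter, 1 and 0 at an adjusted p under 0.01, 4 and 2 with the lung epithelium covariate, 1 and 0 with the Xist covariate and 2 and 1 within the libraries without airway RNA. With 1 library left out they ran from 1 to 4 higher and from 0 to 1 lower. Over all genes, 942 higher and 1226 lower became 1856 and 858 with library totals, 392 and 644 at an adjusted p under 0.01, 138 and 183 with the Xist covariate, 609 and 1062 within the libraries with airway RNA and 595 and 812 within those without. They ran from 579 to 850 higher and from 899 to 1137 lower with 1 library left out. The cause of these shifts was not tested. Xist was low in every library, at 1.55 to 1.98 CPM in mutants and 1.25 to 1.56 CPM in WT. The genotypes overlapped only through WT replicate 1 and Mut replicate 1. Xist can therefore hardly be told apart from genotype here, and calls lost with it as a covariate cannot be read either way. The libraries without airway RNA include 1 WT heart, which is assumed to vary like the others. The labels do not say that a replicate number pairs hearts: deviations of same-numbered hearts correlated at -0.53, 0.78, 0.59 and 0.15, and 2 of 4 mutant and 2 of 4 WT libraries correlated best with their own number. Mut replicates 1 and 2 correlated at 0.67 and 0.78 with WT replicate 2, all without airway RNA, and below 0 with the other WT hearts. Mut replicates 3 and 4 correlated at -0.68 and -0.79 with WT replicate 2 and above 0 with the others. The part of airway RNA in these correlations was not tested. With the replicate block 3 factors were higher and 0 lower, 1023 and 1432 over all genes, and 11 of the SRF targets were lower. Irx6, with 16 to 26 counts per library, and Hand1 had intervals too wide to set a narrow limit on their difference.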
